A study of Homo sapiens with 12 samples.

Results

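H3122 xenograft tumours that had become resistant under 100 mg/kg ceritinib were compared, gene by gene, with those that had become resistant under 75 mg/kg. The comparison used every tumour whose title names either dose, 3 at 100 mg/kg and 4 at 75 mg/kg, which is 7 of the 12 tumours profiled. All 12300 genes detected on at least 2 of the 12 arrays were tested. H3122, an established line of human lung adenocarcinoma, carries EML4-ALK, and its tumours grew in mice, so cells of the host are murine. All 7 tumours came from mice given ceritinib, an inhibitor of the ALK kinase, after tumours had formed. Per the study's description, volume first fell with dose and resistance followed after a period that varied. The day on which each tumour was taken is not given per tumour, so dose and time under treatment cannot be told apart. The other groups were 2 untreated control tumours and 3 tumours at 87.5 mg/kg, which enter the estimate of the spread and are shown beside the results. Whether every tumour had a mouse of its own is not in the labels, so the p-values measure the spread between these tumours, which may be technical.

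EML4-ALK joins the kinase domain of ALK to a partner that makes it active without a ligand, and the signal reaches the cell mainly through the RAS-ERK, PI3K-AKT and STAT3 pathways. Tumours can escape an ALK inhibitor through changes in ALK itself, through other receptor kinases, or with a shift from epithelial to mesenchymal traits. The study's title places microRNAs of the miR-34 and miR-449 families, and deacetylation, beside that shift.

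The 7 arrays detected between 17993 and 19050 of 47323 probes. Over these 7 arrays the first principal component held 37.2% of the variance and separated the doses: the tumours at 75 mg/kg lay between -27.8 and -6.59 and those at 100 mg/kg between 19.7 and 21.2. Array correlations were 0.984 to 0.99 within 75 mg/kg, 0.983 to 0.988 within 100 mg/kg and 0.974 to 0.986 between them. Of 7 epithelial markers, 6 were detected in all 7 tumours. COL3A1, DCN, PDGFRA and PDGFRB of the fibroblast markers, PTPRC, CSF1R, LYZ, CD3E and HBB of the blood markers and all 3 fat markers were detected in none of the 7. The fibroblast markers COL1A1 and LUM, the endothelial markers CDH5 and VWF and the blood markers CD68, CD14, CD163, CD79A and HBA2 were detected in all 7. The summed linear signal of the 7 fibroblast markers ranged from 664 to 995 at 75 mg/kg and from 697 to 887 at 100 mg/kg, and that of the 7 epithelial markers from 89491 to 101703 and from 100996 to 113465. None of the markers that met the detection filter passed the test. The others, among them those named above as detected in none of the 7, were not tested. Cells of the host are murine, and whether these signals reflect the content of host cells was not tested.

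Between the doses, 82 of 12300 genes (0.667%) passed an adjusted p of 0.05, 30 higher (0.244%) and 52 lower (0.423%) at 100 mg/kg. PEBP1, STX19, RUNX3 and the Wnt antagonist APCDD1 were among those that rose, and CCNY, UGCG, BMP2, CDH11 and APP among those that fell. The differences were moderate, from -1.71 to 1.85 on the log2 scale, and 36 of the 82 exceeded 2-fold, as did 1.45% of all genes. In each of the 82, the 3 tumours at 100 mg/kg lay on 1 side of all 4 at 75 mg/kg, as they did in 18.8% of all genes (10.4% above and 8.38% below). An unadjusted p under 0.05 was reached by 1927 genes (15.7%). In bulk tumours, fewer cells of a kind and less RNA per cell cannot be told apart.

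The number of genes that passed depended on each tumour. Without replicate 1, 2, 3 or 4 at 75 mg/kg it was 1, 2, 0 and 3, and without replicate 1, 2 or 3 at 100 mg/kg it was 2, 0 and 1. The tumours that entered only the spread also moved it: leaving out replicate 1, 2 or 3 at 87.5 mg/kg gave 54, 331 and 144 genes. With the 7 tumours fitted alone it was 416. All 82 genes kept an unadjusted p under 0.05 in each of these fits, but they had been chosen for a small p in the same tumours. Their direction could not change in these fits. Groups that do not overlap keep their order without 1 tumour, and leaving out other groups does not change the difference. The split depended on the scaling: 36.6% of the genes that passed were higher at 100 mg/kg after quantile normalization, against 64.6% of 82 after scaling each array to 1 median, which moved the median difference of all genes from 0.04 to 0.16. The largest adjusted p among the 82 was 0.0498 and the smallest 0.00763.

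**Figure D1:**
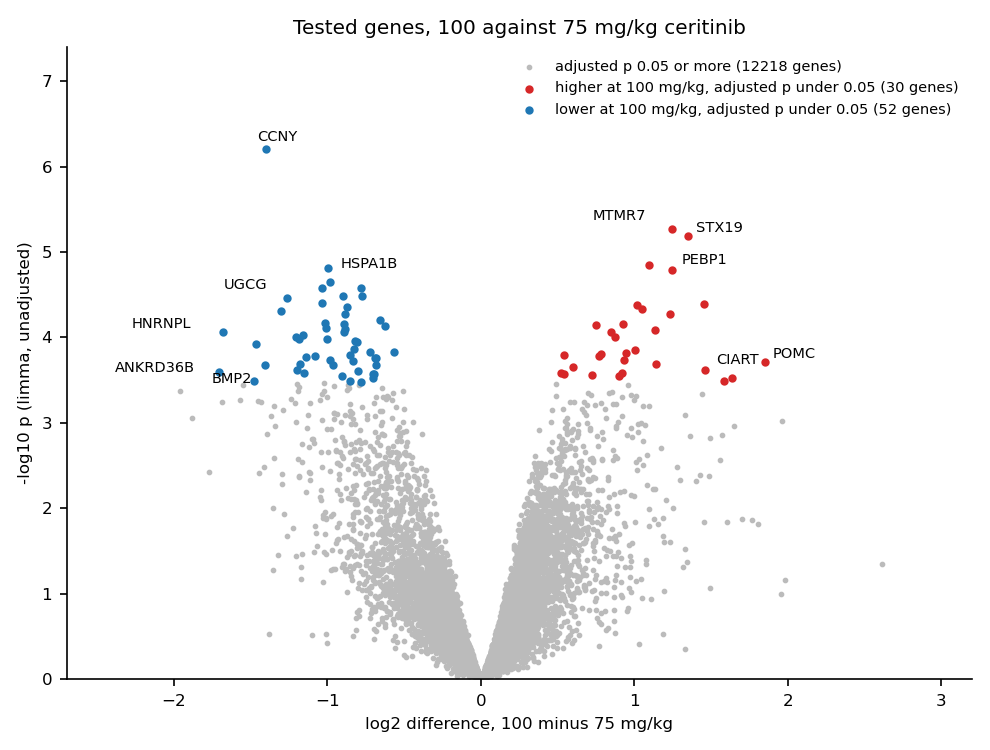
Each point is 1 of the 12300 tested genes, by its log2 difference (100 minus 75 mg/kg, horizontal) and -log10 of its unadjusted limma p (vertical). The 30 red genes were higher and the 52 blue genes lower at 100 mg/kg with an adjusted p under 0.05. CCNY stands highest.

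Among the genes that rose, PEBP1, a protein that binds RAF and holds back its signal to MEK, had log2 signals of 8.81, 8.70, 8.52 and 9.36 at 75 mg/kg. At 100 mg/kg they were 10.10, 10.08 and 10.09. The groups were separate, and the difference was 1.24 (SE 0.17, adjusted p 0.0328), or 2.37-fold. The controls, at 7.18 and 7.03, lay below both doses, and the 3 tumours at 87.5 mg/kg, at 8.72 to 9.02, lay within the range of 75 mg/kg.

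STX19, a syntaxin that takes part in the fusion of transport vesicles with the cell membrane, had log2 signals of 9.09, 9.34, 9.26 and 9.32 at 75 mg/kg and of 10.58, 10.52 and 10.70 at 100 mg/kg. Its difference of 1.35 (SE 0.17, adjusted p 0.0266) exceeded the spread within both groups, which was small. RUNX3, a transcription factor of the Runt family, was at 6.62, 6.87, 7.07 and 6.91 against 8.11, 7.55 and 8.0, a difference of 1.02 (SE 0.16, adjusted p 0.0328). The 3 tumours at 87.5 mg/kg, at 7.28 to 7.56, lay between or at the edge of the 2 groups.

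APCDD1, a membrane protein that binds Wnt ligands and their receptors and inhibits the pathway, had log2 signals of 8.39, 8.83, 8.27 and 8.33 at 75 mg/kg and of 9.98, 9.31 and 9.49 at 100 mg/kg. The difference was 1.14 (SE 0.19, adjusted p 0.0333). The controls, at 9.95 and 9.60, were near the level of 100 mg/kg, and the 4 tumours at 75 mg/kg were the lowest of all 12. LRIG3, a membrane protein with leucine-rich repeats, rose by 1.09 (SE 0.15, adjusted p 0.0328). LMO3, a LIM-only transcriptional cofactor, rose by 1.23 (SE 0.19, adjusted p 0.0328).

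POMC, the precursor of corticotropin and other peptide hormones, was detected in no tumour at 75 mg/kg and in all 3 at 100 mg/kg. Its log2 signals at 100 mg/kg were 6.29, 7.56 and 7.72, and those at 75 mg/kg, 4.97 to 5.72, were below detection. Replacing the undetected signals by the lowest detected signal of each array, the level at 100 mg/kg was at least 2.05-fold higher, with replicate 1 the lowest of the 3. The adjusted p of 0.0417 is that of the fit on the signals as measured, undetected ones included. The bound itself was not tested, and the same holds for each bound given below with an adjusted p. Without detection in any tumour at 75 mg/kg were also MTMR7, a myotubularin-related phosphatase (at least 1.89-fold higher, adjusted p 0.0266), RIPPLY2, a transcriptional corepressor of somite formation (at least 1.6-fold, adjusted p 0.0497), and CCDC110 (at least 1.32-fold, adjusted p 0.0328). POMC and CCDC110 were among 8 genes that rose and were detected at 100 mg/kg alone of the 4 groups. These 8 were tested only because of the tumours in which they were high, so their values are a description. In all, 11 of the 30 genes that rose were undetected in each tumour at 75 mg/kg, and the median log2 signal of the 30 was 6.35 at 75 mg/kg, against 9.2 for all tested genes.

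CIART is a repressor of the circadian clock that acts on the CLOCK-BMAL1 activator. Its log2 signals were 7.26, 7.52, 7.25 and 7.51 at 75 mg/kg and 9.10, 8.75 and 8.70 at 100 mg/kg, a difference of 1.46 (SE 0.28, adjusted p 0.0456). The 2 controls, at 5.82 and 5.19, lay below every treated tumour. CLOCK-BMAL1 binds the E-box, and the promoter window of CIART is shown because it holds that hexamer, CACGTG, in capitals. The window is 300 bases on the forward strand at chr1:150282304-150282603 (RefSeq, GRCh38.p14).
CIART: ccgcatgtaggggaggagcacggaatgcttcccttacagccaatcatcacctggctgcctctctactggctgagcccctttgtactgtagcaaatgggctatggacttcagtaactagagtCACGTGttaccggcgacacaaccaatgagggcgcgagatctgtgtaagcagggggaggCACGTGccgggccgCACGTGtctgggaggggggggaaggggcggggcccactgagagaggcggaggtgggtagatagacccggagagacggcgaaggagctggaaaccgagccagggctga
The window holds 3 matches of CACGTG, a palindrome that reads alike on both strands. Of 27305 promoter windows of that length, 7.43% hold at least 1 match and 0.696% hold 2 or more. A match is a description of the letters, and binding was not measured. Of 17 clock genes, a list chosen after CIART had been seen, CIART alone passed the test and the median difference was 0.19. HLF, a clock output factor, differed by 0.86 (SE 0.26, adjusted p 0.144) and BMAL1 by -0.51 (SE 0.22, adjusted p 0.282), and neither passed. The hour at which tumours were taken is not given in the sources used here.

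Other genes that rose, named here after their values were seen, were MAF, a bZIP transcription factor (0.94, SE 0.17, adjusted p 0.0404), TMEM163, a zinc transporter (0.72, SE 0.14, adjusted p 0.0458), and CC2D2A, a protein of the base of the cilium (0.77, SE 0.14, adjusted p 0.0404). TMSB15B, a beta-thymosin that binds actin monomers, rose by 1.64 (SE 0.32, adjusted p 0.0471), and by 0.81 where no background was subtracted. DNTTIP2, which interacts with terminal transferase, rose by 1.01 (SE 0.18, adjusted p 0.0404). PLPPR4, a phospholipid phosphatase-related membrane protein, and FREM2, a protein of the extracellular matrix, were again detected at 100 mg/kg alone, in 3 and 2 tumours, with bounds of 1.11-fold and 1.13-fold.

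**Figure D2:**
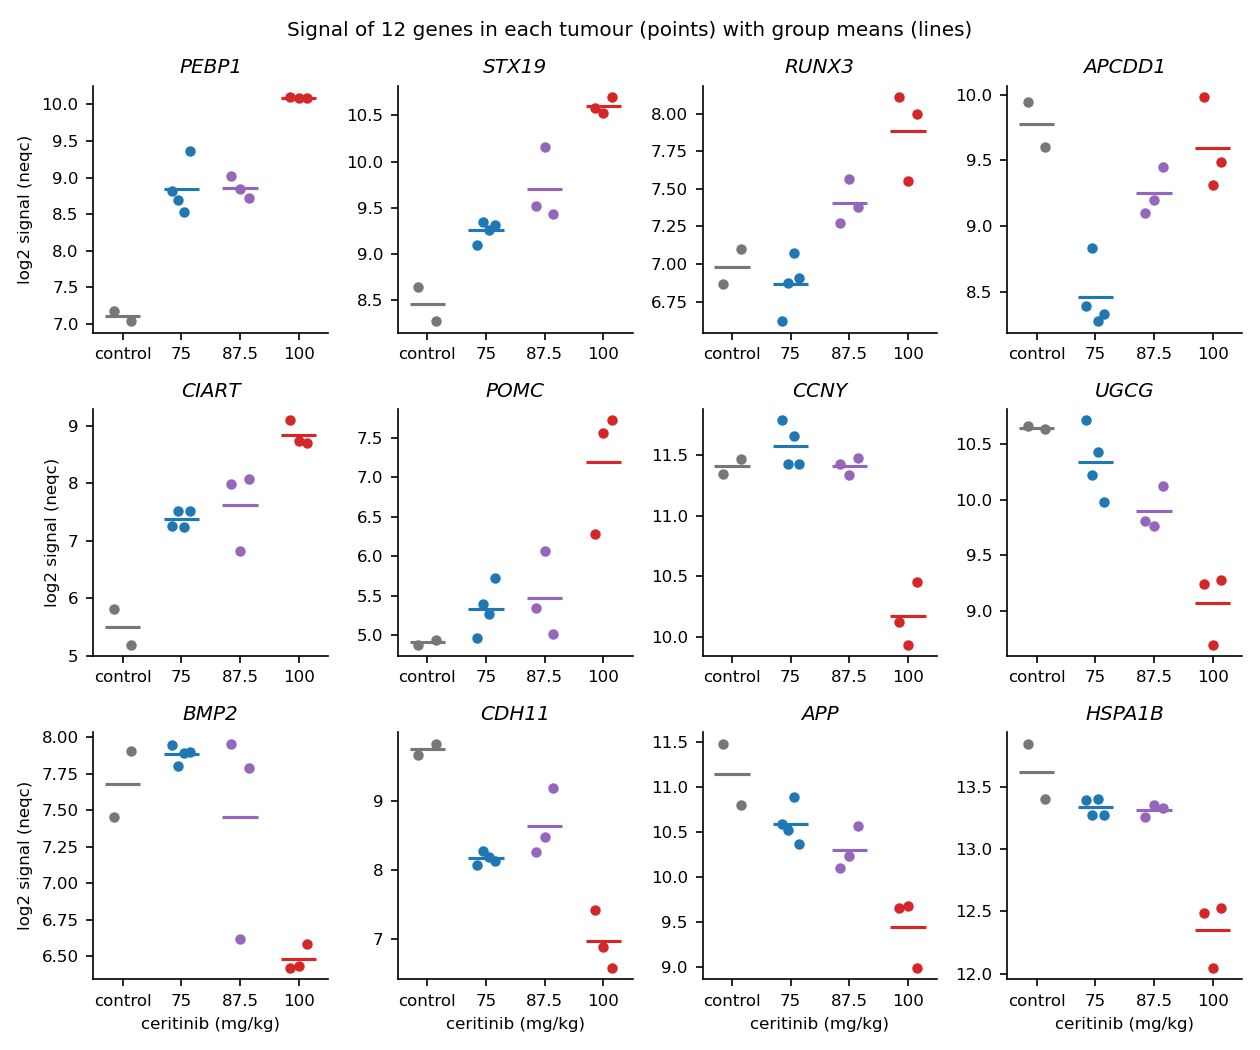
Log2 signal (vertical) of 12 genes that passed the test, in control tumours and at 75, 87.5 and 100 mg/kg ceritinib (horizontal). Each point is 1 tumour and each line a group mean. In all 12 genes the 3 tumours at 100 mg/kg lie on 1 side of the 4 at 75 mg/kg. The vertical axes do not start at 0.

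Among the genes that fell, CCNY had the smallest adjusted p of all genes. It encodes cyclin Y, a membrane-bound cyclin that activates CDK14. Its log2 signals were 11.78, 11.42, 11.65 and 11.42 at 75 mg/kg and 10.12, 9.93 and 10.45 at 100 mg/kg, and it fell by 1.40 (SE 0.14, adjusted p 0.00763). The controls, at 11.34 and 11.47, and the tumours at 87.5 mg/kg, at 11.33 to 11.47, lay near 75 mg/kg. Another detected probe of CCNY differed by 0.16 (SE 0.23), so the lower signal was that of 1 probe.

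UGCG makes glucosylceramide, the first step of most glycosphingolipids. Its log2 signals were 10.71, 10.22, 10.43 and 9.98 at 75 mg/kg and 9.24, 8.70 and 9.28 at 100 mg/kg. It fell by 1.27 (SE 0.19, adjusted p 0.0328), with no overlap. The 3 tumours at 87.5 mg/kg, at 9.77 to 10.13, overlapped the range of 75 mg/kg and stayed above 100 mg/kg. ACER3, an alkaline ceramidase of the same lipid class, fell by 1.00 (SE 0.14, adjusted p 0.0328), and another probe of it differed by -0.94 (SE 0.36).

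BMP2, a secreted ligand of the TGF-beta superfamily, was at 7.94, 7.80, 7.89 and 7.90 against 6.42, 6.43 and 6.59, and fell by 1.40 (SE 0.26, adjusted p 0.0417). Spread was small within both groups, and replicate 2 at 87.5 mg/kg, at 6.62, was near 100 mg/kg while the other tumours of that dose were at 7.95 and 7.79. APP, the amyloid precursor protein of the cell surface, was at 10.59, 10.52, 10.89 and 10.37 against 9.66, 9.67 and 8.99, and fell by 1.15 (SE 0.22, adjusted p 0.0456). Both of its other detected probes were also lower, by -1.19 (SE 0.26) and -0.39 (SE 0.15).

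CDH11, a cadherin typical of mesenchymal cells, was at 8.07, 8.28, 8.19 and 8.13 at 75 mg/kg and at 7.42, 6.90 and 6.59 at 100 mg/kg. It fell by 1.20 (SE 0.23, adjusted p 0.0456). The controls were highest, at 9.66 and 9.82. PROX1, a homeobox transcription factor, fell by 1.48 (SE 0.29, adjusted p 0.0497), from between 7.18 and 8.25 to between 6.06 and 6.20. SHC4, an adaptor that links receptor kinases to RAS, fell by 1.14 (SE 0.21, adjusted p 0.0404), and the controls of this gene, at 7.27 and 7.76, lay in the range of 100 mg/kg.

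Further genes that fell are given by their role, without a test of any shared role, and UGGT1, like ACER3, was named after its values were seen. FICD, an endoplasmic reticulum enzyme that modifies the chaperone BiP, fell by 1.16 (SE 0.20, adjusted p 0.0349). UGGT1, the folding sensor for glycoproteins, fell by 1.02 (SE 0.17, adjusted p 0.0333), with another probe at -1.02 (SE 0.30). LEPROT, which acts in the traffic of receptors from endosomes, fell by 1.18 (SE 0.20, adjusted p 0.0349). VPS13C, a lipid transfer protein at membrane contacts, fell by 1.18 (SE 0.22, adjusted p 0.0417), but its other probe differed by 0.15 (SE 0.30). GSDMB, a gasdermin, fell by 1.47 (SE 0.25, adjusted p 0.0368), and its 2 other probes differed by -0.33 (SE 0.19) and -0.21 (SE 0.19).

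Others act on RNA and transcription. HNRNPL, a splicing regulator, was at 10.60, 10.59, 10.68 and 10.33 against 9.20, 8.0 and 9.40, and fell by 1.68 (SE 0.28, adjusted p 0.0333), with replicate 2 at 100 mg/kg the lowest. The splicing factors TRA2A and RBFOX2 fell by 0.89 (SE 0.15, adjusted p 0.0333) and by 0.57 (SE 0.10, adjusted p 0.0404). The other detected probe of RBFOX2 differed in the opposite direction, by 0.15 (SE 0.23). MED1 and MED13, subunits of the Mediator complex and of its kinase module, fell by 0.78 (SE 0.11, adjusted p 0.0328) and by 0.89 (SE 0.14, adjusted p 0.0328), although another probe of MED1 differed by -0.01 (SE 0.15). RN7SK, the small nuclear RNA that holds the elongation factor P-TEFb inactive, fell by 0.88 (SE 0.15, adjusted p 0.0333). These genes beyond HNRNPL were named after their values were seen.

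The noncoding ASAP1-IT1 and LINC00205 were detected in no tumour at 100 mg/kg and were at least 1.66-fold and 1.16-fold lower there (adjusted p 0.0328 and 0.0349). ASAP1-IT1 lies within ASAP1, an Arf GTPase-activating protein that itself fell by 0.72 (SE 0.13, adjusted p 0.0404). ANKRD36B had the lowest difference among the genes that passed, -1.71 (SE 0.32, adjusted p 0.0456), and -0.31 (SE 0.34) on its other probe. It belongs to a family of near-identical copies, and EIF3CL, at least 1.06-fold lower (adjusted p 0.0328), is nearly identical to EIF3C, so these probes may read more than 1 gene. The 52 genes that fell had a median log2 signal of 9.15 at 75 mg/kg, near the 9.2 of all tested genes.

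**Figure D3:**
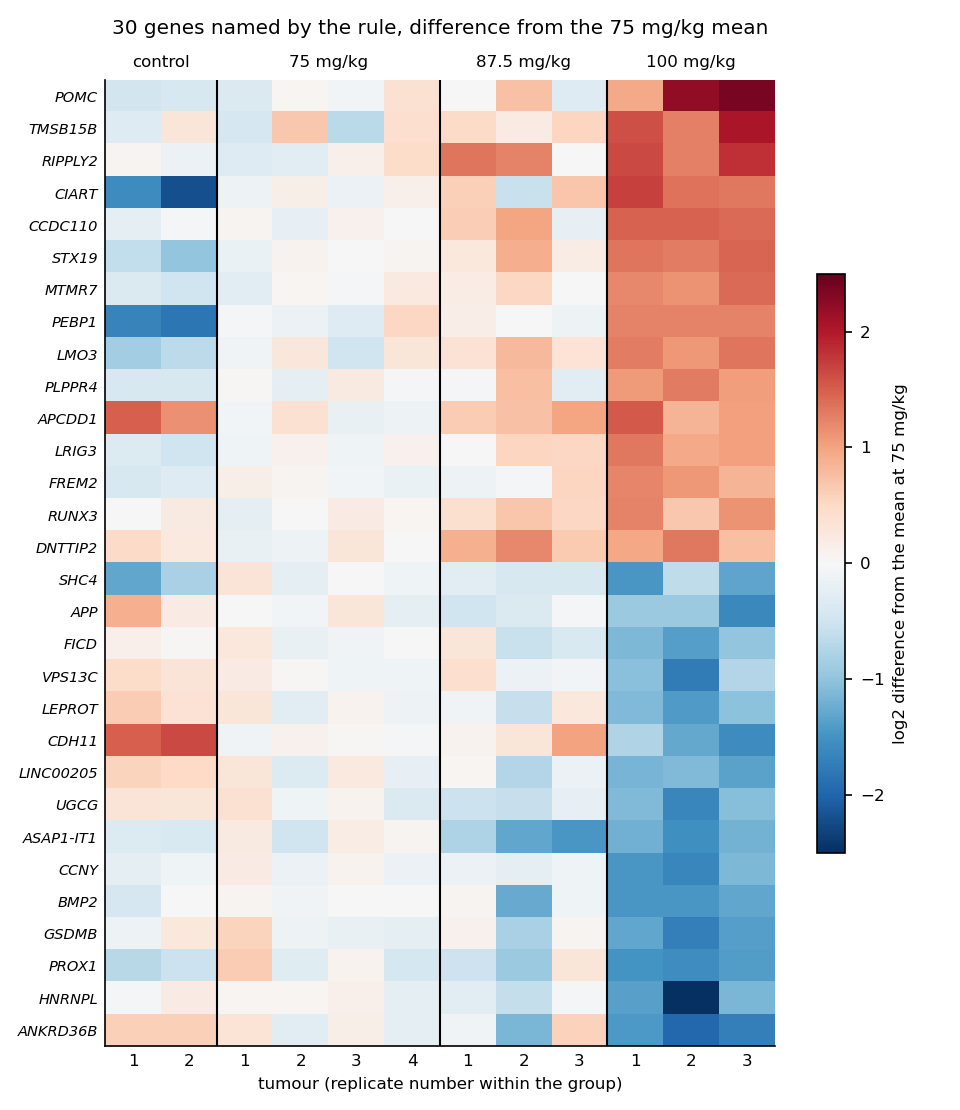
Rows are the 15 highest and 15 lowest differences among genes that passed the test, and columns are the 12 tumours by group and replicate number. Colour is the log2 difference from the gene's mean at 75 mg/kg, red higher and blue lower. Most rows are pale at 75 and 87.5 mg/kg and deep at 100 mg/kg, while APCDD1, CDH11, PEBP1 and CIART also differ in the controls.

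The middle dose lay nearer to 75 mg/kg in most of these genes. Its mean was nearer to 75 than to 100 mg/kg in 73 of the 82, as it was in 7363 of all 12300 genes, and in 73 of the 82 none of its 3 tumours reached the range of 100 mg/kg, as in 2061 of all 12300. The control mean was nearer to 75 mg/kg in 78 of the 82, against 7372 of all genes. These counts share the tumours that chose the 82 genes and are a description. In the same fit, 87.5 against 75 mg/kg gave 0 genes past the threshold in limma (1036, or 8.42%, at an unadjusted p under 0.05), and 100 against 87.5 mg/kg gave 96 genes (0.78%, and 16% at an unadjusted p under 0.05). Each comparison shares a group of tumours with the main one.

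Most short structural RNAs had lower probe signals at 100 than at 75 mg/kg, and 3 passed the test. All 11 small nuclear RNAs had a negative difference, with a median of -0.50, and so did all 4 Y RNAs (median -0.46) and all 3 ribosomal RNAs (median -0.56). Of 119 small nucleolar RNAs, which guide the modification of ribosomal RNA, 94 were negative (median -0.15). In these classes and related short structural RNAs, 114 of 140 genes were negative, against 5392 of 12300 genes tested, and 25% lay wholly below 75 mg/kg, against 8.38%. RN7SK, SNORA80A (-0.90, SE 0.14, adjusted p 0.0328) and SNORD101 (at least 1.23-fold lower, adjusted p 0.0404) passed the test. The medians of small nuclear and small nucleolar RNAs stayed negative with arrays scaled to 1 median (-0.36 and -0.10) and without normalization (-0.25 and -0.06).

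Within the groups these classes varied by tumour. The median deviation of the small nuclear RNAs from their mean over the 7 tumours was 0.44, 0.27, 0.14 and 0.07 at 75 mg/kg and -0.32, -0.39 and 0.00158 at 100 mg/kg. Replicate 3 at 100 mg/kg was thus close to the lower tumours at 75 mg/kg. Against the same mean the median deviation was 0.21 and 0.49 in the controls and 0.03 to 0.39 at 87.5 mg/kg. For small nucleolar RNAs the controls, at -0.04 and -0.08, lay within the range of -0.21 to 0.01 at 100 mg/kg. Protein-coding genes had a median difference of 0.04. The median log2 signal of small nucleolar RNAs was 7.21 to 7.30 at 75 mg/kg and 6.80 to 7.21 at 100 mg/kg. The lowest detected signals of these arrays were 6.03 to 6.26. Whether the recovery of short RNA differed between extractions, and its part in the genes that fell, was not tested. Nor was it tested whether these probe signals follow the amount of each mature RNA.

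**Figure D4:**
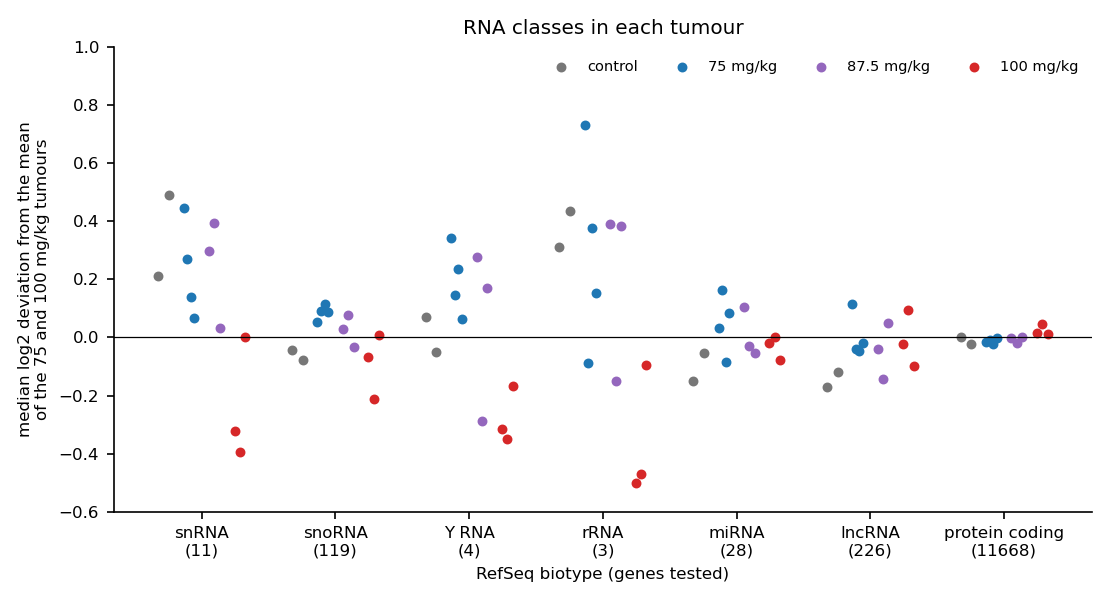
Median log2 deviation of each RNA class (vertical) from the mean of the 7 tumours at 75 and 100 mg/kg, 1 point per tumour, coloured by group, by RefSeq biotype (horizontal, with the number of genes tested). In small nuclear, small nucleolar, Y and ribosomal RNA the 3 tumours at 100 mg/kg lie below all 4 at 75 mg/kg, while protein-coding medians stay close to 0.

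Genes with other detected probes gave a second reading of the same tumours, which is no independent check. Of the 82 genes, 21 had 27 other probes, of which 21 differed in the same direction and 6 in the opposite one, and 12 of the 27, in 11 genes, had the same direction with an unadjusted p under 0.05. All 3 other probes of genes that rose did so, POMC among them (0.81, SE 0.24). The other probes of POMC and TMSB15B had mean log2 signals of 6.06 and 6.37 at 100 mg/kg and of 5.25 and 5.89 at 75 mg/kg. These are near the lowest detected signals of the 7 arrays, 6.03 to 6.26. POMC was tested only because of tumours in which it was high, so its second probe is a description. Among genes that fell it was 9 of 24. Where a gene's probes disagree, the value belongs to the probe with the highest mean signal. As a description, genes that passed were longer by their RefSeq span, with a median of 34.8 kb for those that rose and 50.02 kb for those that fell, against 28.1 kb for all tested genes.

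Of 954 genes in 40 lists of pathways, lineages and complexes, 6 passed the test: HSPA1B, CDH11, BMP2, ASAP1 and MTF1 fell and APCDD1 rose. That is 0.629% of the listed genes, beside 0.667% of all genes tested. The other 34 lists held none. The remaining 76 genes that passed are in no list, so a list does not stand for every gene of its theme. List medians ranged from -0.27, for alveolar and airway secretory genes, to 0.57, for neural and neuroendocrine genes, beside 0.04 for all genes. Arrays scaled to 1 median, or not normalized, changed the sign of 16 of 40 medians, and of 7 when each was taken relative to all genes. Medians below are after quantile normalization, and their sign is given only with that limit.

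**Figure D5:**
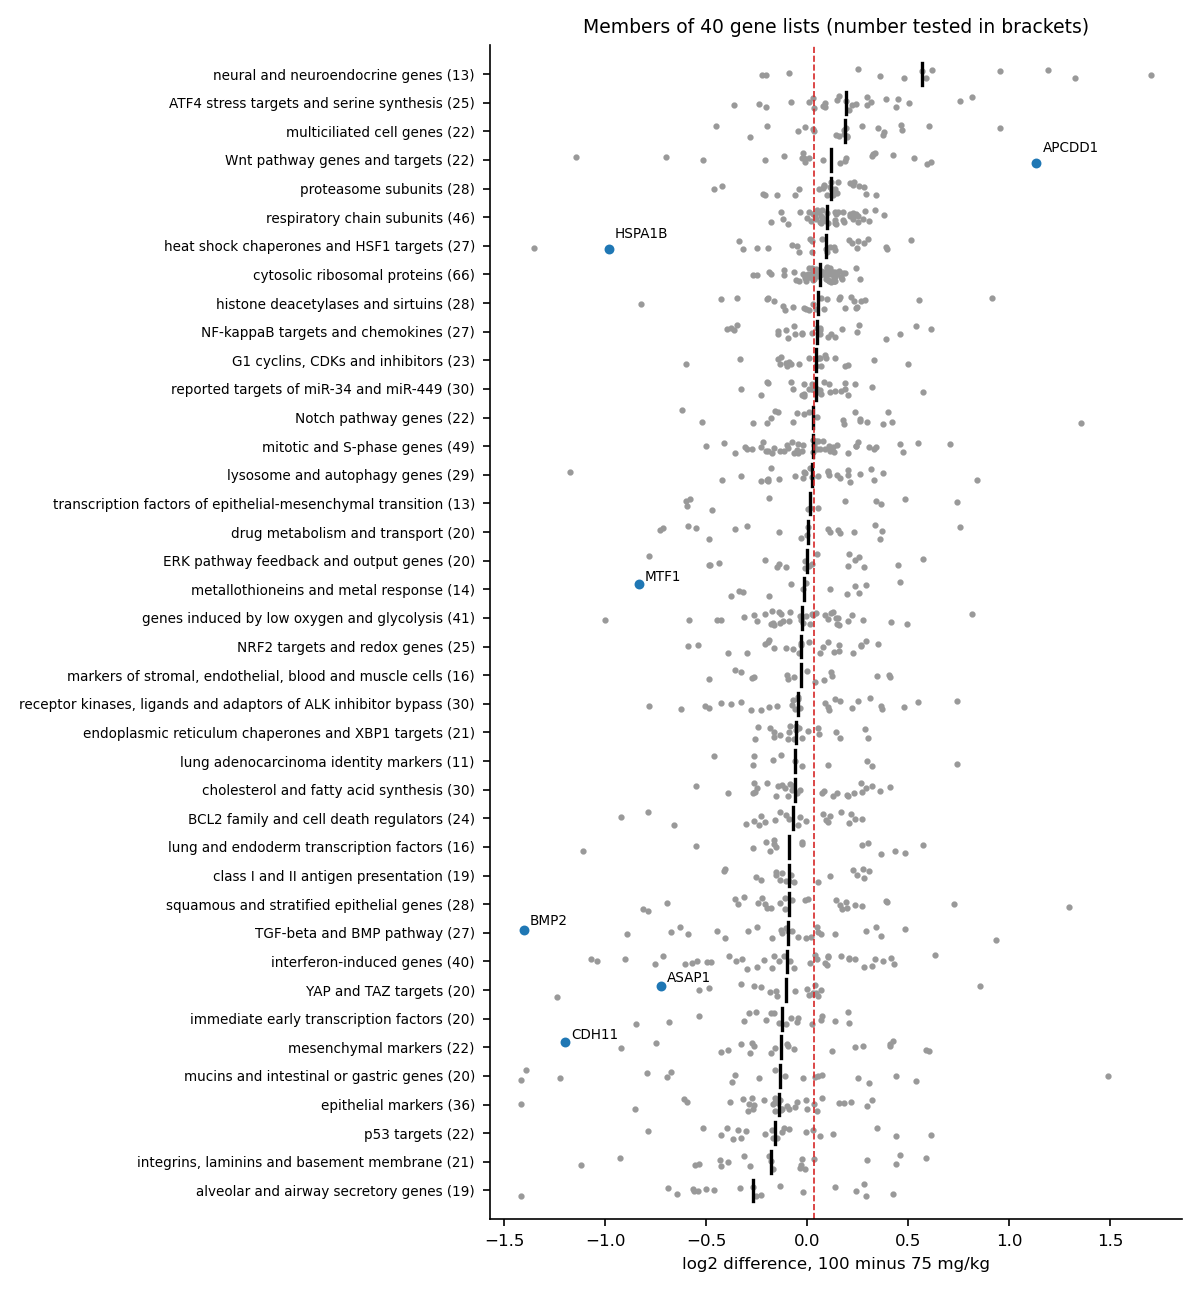
Grey points are the members of each of 40 lists by their log2 difference (100 minus 75 mg/kg, horizontal), and black bars are list medians. The dashed line is the median of all genes, 0.04. Blue points, with names, are the 6 members that passed the test, in either direction.

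In the list of heat shock chaperones and targets of HSF1, 1 of 27 members fell and none rose, and the median was 0.09. HSPA1B, a stress-inducible HSP70, had log2 signals of 13.39, 13.28, 13.40 and 13.27 at 75 mg/kg and of 12.49, 12.05 and 12.53 at 100 mg/kg. It fell by 0.98 (SE 0.14, adjusted p 0.0328), with narrow groups that did not overlap. HSPA1A, its near-identical neighbour, differed by -0.25 (SE 0.17, adjusted p 0.51), and probes may read both. HSPA6, strictly stress-inducible, was at 8.59, 8.37, 6.67 and 7.24 against 5.73, 6.58 and 6.79, with overlap (-1.35, SE 0.44, adjusted p 0.168). HSPA8, the constitutive family member, was at 13.63 to 13.91 against 14.10 to 14.30 (0.39, SE 0.11, adjusted p 0.114).

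The promoter windows of these 3 genes are shown because members with differences of either sign hold the core of the heat shock element that HSF1 binds, GAANNTTC, in capitals. Each is 300 bases, 5′ to 3′, from RefSeq (GRCh38.p14). HSPA1B is on the forward strand at chr6:31827488-31827787, HSPA6 on the forward strand at chr1:161524290-161524589 and HSPA8 on the reverse strand at chr11:123062087-123062386.
HSPA1B: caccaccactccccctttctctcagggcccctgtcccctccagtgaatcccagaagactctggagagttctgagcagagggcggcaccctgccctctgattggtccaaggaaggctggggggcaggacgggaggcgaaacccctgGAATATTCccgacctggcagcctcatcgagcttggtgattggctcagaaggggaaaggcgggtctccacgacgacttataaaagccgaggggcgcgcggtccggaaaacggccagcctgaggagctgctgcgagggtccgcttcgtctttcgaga
HSPA6: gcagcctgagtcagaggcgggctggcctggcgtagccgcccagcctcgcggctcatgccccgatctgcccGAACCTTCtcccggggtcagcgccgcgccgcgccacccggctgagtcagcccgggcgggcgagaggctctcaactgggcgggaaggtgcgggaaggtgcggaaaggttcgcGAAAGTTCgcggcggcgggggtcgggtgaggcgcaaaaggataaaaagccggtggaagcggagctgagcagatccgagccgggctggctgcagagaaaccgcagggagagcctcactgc
HSPA8: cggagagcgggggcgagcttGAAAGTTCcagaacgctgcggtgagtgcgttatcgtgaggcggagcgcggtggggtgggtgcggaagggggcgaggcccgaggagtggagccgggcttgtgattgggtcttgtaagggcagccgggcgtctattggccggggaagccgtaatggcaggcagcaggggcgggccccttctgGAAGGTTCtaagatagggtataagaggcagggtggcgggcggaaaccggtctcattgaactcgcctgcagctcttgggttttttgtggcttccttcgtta
HSPA1B holds 1 match and HSPA6 and HSPA8 hold 2 each. The motif is a palindrome, so both strands were read, and 6.87% of the 27305 windows hold at least 1 match and 0.381% hold 2 or more.

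Lists on epithelial and mesenchymal identity held 1 gene that passed, CDH11. CTNND1, p120-catenin, is in none of them and passed (-0.98, adjusted p 0.0414). Its other probes differed by -0.69 (SE 0.19) and 0.03 (SE 0.28), and it was named after its values were seen. Among 36 epithelial markers none passed and 27 were negative. Their median was -0.14, or 0.01 with arrays scaled to 1 median. Relative to all genes it was -0.18, and -0.15 with that scaling. CDS1, an enzyme of phosphatidylinositol synthesis, was at 10.53 to 10.63 against 9.92 to 10.04 and missed the threshold narrowly (-0.61, SE 0.13, adjusted p 0.0542). MUC1, a membrane mucin, was at 14.72, 14.85, 13.71 and 14.00 against 12.14, 13.94 and 12.64 (-1.42, SE 0.38, adjusted p 0.106). KRT8, a keratin of simple epithelia, lay the other way, at 14.79 to 14.92 against 15.10 to 15.25 (0.32, SE 0.11, adjusted p 0.195).

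Among 22 mesenchymal markers 1 fell and the median was -0.13. S100A4, a calcium-binding protein linked to motility, differed by -0.92 (SE 0.37, adjusted p 0.262), and COL6A3, a collagen subunit, by 0.60 (SE 0.18, adjusted p 0.143, detected in 1 of 4 tumours at 75 mg/kg). None of 13 transcription factors of the epithelial-mesenchymal transition passed. TWIST1, 1 of them, was at 6.31 to 6.64 against 6.78 to 7.45 (0.74, SE 0.28, adjusted p 0.235).

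The genes named by the study did not pass the test. ALK was at 11.58, 12.40, 11.61 and 11.82 at 75 mg/kg and at 12.46, 12.47 and 12.85 at 100 mg/kg. The groups were separate but the 75 mg/kg tumours spread widely (0.74, SE 0.37, adjusted p 0.36). Differences were 0.11 (SE 0.11, adjusted p 0.693) for EML4, -0.17 (SE 0.12, adjusted p 0.537) for E-cadherin, CDH1, and 0.24 (SE 0.24, adjusted p 0.674) for vimentin, VIM. N-cadherin, CDH2, differed by 0.41 (SE 0.30, adjusted p 0.538), and the bypass receptor MET by 0.14 (SE 0.13, adjusted p 0.663). AXL, also a bypass receptor, was detected in 1 of 4 tumours at 75 mg/kg and in 0 of 3 at 100 mg/kg, so no difference is given. HDAC1 and HDAC2, class I histone deacetylases, differed by 0.08 (SE 0.12, adjusted p 0.779) and 0.22 (SE 0.12, adjusted p 0.413). ZEB1 and SNAI1 were detected on 0 arrays and were not tested.

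The array carries 1 probe each for the genes MIR34A, MIR449A, MIR449B and MIR449C, detected on 0 of 12 arrays, so the microRNAs of the title could not be compared. Their mature forms (RefSeq, GRCh38.p14) are shown with the seed, bases 2 to 8, in capitals, to set their seeds side by side.
hsa-miR-34a-5p: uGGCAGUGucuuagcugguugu
hsa-miR-449a: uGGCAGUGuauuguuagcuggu
hsa-miR-449b-5p: aGGCAGUGuauuguuagcuggc
hsa-miR-449c-5p: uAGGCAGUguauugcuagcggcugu
The first 3 share 1 seed, GGCAGUG. In hsa-miR-449c-5p the same letters lie 1 base further along, so its bases 2 to 8 are AGGCAGU. CDC20B, whose intron holds the miR-449 cluster, had log2 signals of 5.38, 5.49, 7.29 and 7.18 at 75 mg/kg and of 7.62, 8.46 and 5.80 at 100 mg/kg. It was detected in 2 of 4 and 2 of 3 tumours, high and low within each dose (0.96, SE 0.62, adjusted p 0.484). Of 30 genes listed as targets of these microRNAs, none passed, 20 were positive and the median was 0.04, equal to that of all genes to 2 decimals. The 28 histone deacetylases, sirtuins and related genes also held none that passed; KAT7, an acetyltransferase, was closest (0.55, SE 0.13, adjusted p 0.0714).

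Of 27 genes of the TGF-beta and BMP pathway, the ligand BMP2 fell. The receptors differed in sign: TGFBR3, the coreceptor betaglycan, by -0.89 (SE 0.22, adjusted p 0.0825) and TGFBR2 by 0.48 (SE 0.15, adjusted p 0.157). Of 20 YAP and TAZ targets, ASAP1 fell, at 12.25, 12.06, 12.19 and 12.39 against 11.48, 11.66 and 11.35. CCN2, a matricellular target of this pathway, was at 11.87 to 12.05 against 10.23, 11.24 and 10.76 and missed the threshold (-1.24, SE 0.26, adjusted p 0.0558). WWC1, an upstream regulator of the pathway, differed by 0.86 (SE 0.22, adjusted p 0.0898).

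Of 22 listed Wnt genes only the inhibitor APCDD1 passed, while CTNNB1, beta-catenin, was at 11.49 to 11.87 against 11.02, 9.39 and 11.04 (-1.14, SE 0.34, adjusted p 0.142). DVL3, a Dishevelled gene of the Wnt pathway, is not in that list and also passed (-0.86, adjusted p 0.0497). It was named after its values were seen. Of 22 Notch genes none passed. DLL3, a Notch ligand of neuroendocrine tumours, was undetected in all 4 tumours at 75 mg/kg and at 6.99, 7.52 and 7.54 at 100 mg/kg, at least 2.30-fold higher with an adjusted p of 0.0769. Neither the 20 genes of ERK output and feedback (median 0.00110) nor the 30 of bypass receptors, ligands and adaptors (median -0.05, 0.09 with arrays scaled to 1 median) held a gene that passed. The bypass median was -0.08 relative to all genes, and -0.07 with that scaling. SHC4, the adaptor given above as a gene that passed, is not in the bypass list. Among the ERK genes EPHA2, a receptor kinase, differed by -0.78 (SE 0.31, adjusted p 0.25) and ETV4, an ETS factor induced by ERK, by 0.45 (SE 0.18, adjusted p 0.261).

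Immediate early factors, 20 genes with a median of -0.12 (0.01 with arrays scaled to 1 median), held none that passed. Their median was -0.16 relative to all genes, and -0.15 with that scaling. FOSB was at 8.83 to 9.15 against 8.09 to 8.51 (-0.68, SE 0.21, adjusted p 0.142) and NR4A2 differed by -0.85 (SE 0.25, adjusted p 0.143).

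Lineage lists gave the widest medians without a gene that passed. Of 29 listed neural and neuroendocrine genes 13 were tested. Among the 13, 10 were positive, and the median of 0.57 was 0.63 with arrays scaled to 1 median and 0.34 without normalization. Relative to all genes these medians were 0.53, 0.47 and 0.22. INSM1, ENO2 and TUBB3 were negative, at -0.20, -0.09 and -0.22. The groups did not overlap in 7.69% of the 13 genes, against 18.8% of all genes. KIF5C, a neuronal kinesin, was at 8.59, 9.44, 9.55 and 10.80 at 75 mg/kg and at 11.62, 11.16 and 11.10 at 100 mg/kg (1.70, SE 0.58, adjusted p 0.191). SCG3, a secretogranin, was at 4.89, 5.33, 4.89 and 6.91 against 6.24, 6.35 and 7.51. It was detected in 1 of 4 tumours at 75 mg/kg and in all 3 at 100 mg/kg and did not pass the test. In both genes replicate 4 was the highest at 75 mg/kg.

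Of 19 alveolar and airway secretory genes 14 were negative, with a median of -0.27 that was -0.12 with arrays scaled to 1 median and -0.13 without normalization. These medians were -0.30, -0.28 and -0.24 relative to all genes. SLPI, a protease inhibitor of airway secretion, differed by -0.69 (SE 0.29, adjusted p 0.283). The 5 positive members were AQP5 (0.43), ABCA3 (0.29), SFTPD (0.28), LAMP3 (0.24) and LPCAT1 (0.14). A separate list of 20 mucins and intestinal or gastric genes held 8 positive members and none that passed, with a median of -0.13. SERPINA1 was its highest member, at 1.49 (adjusted p 0.392). In that mucin list MUC2, a secreted intestinal mucin, was at 8.32, 8.71, 7.92 and 7.60 against 6.66, 6.83 and 6.75 (-1.39, SE 0.33, adjusted p 0.0757). MUC4, a membrane mucin, differed by -1.23 (SE 0.44, adjusted p 0.208). Of 22 multiciliated cell genes 17 were positive (median 0.19). RFX2, a transcription factor of ciliogenesis, was at 7.28 to 7.66 against 7.88 to 8.06 (0.46, SE 0.11, adjusted p 0.0824).

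Growth and death lists held no gene that passed. Of 49 mitotic and S-phase genes (median 0.03), MCM4, a subunit of the replicative helicase, was at -0.50 (SE 0.13, adjusted p 0.0918) and HMMR, a spindle protein, at 0.71 (SE 0.24, adjusted p 0.191). Among 22 p53 targets BAX, a pore-forming death effector, differed by -0.79 (SE 0.20, adjusted p 0.0891) and TP53I3, an oxidoreductase, by 0.61 (SE 0.15, adjusted p 0.0891). CFLAR, the inhibitor of caspase-8, was at 11.98, 11.45, 11.51 and 11.53 against 10.72, 10.69 and 10.69 (-0.92, SE 0.23, adjusted p 0.0907).

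Lists of respiratory chain, ribosomal and proteasome subunits held no gene that passed. Of 46 respiratory chain subunits 40 were positive, with a median of 0.10. Of 66 cytosolic ribosomal proteins 53 were positive, with a median of 0.06, or 0.13 with arrays scaled to 1 median. Relative to all genes the ribosomal median was 0.03, and -0.03 with that scaling. Of all 12300 genes 6908 were positive. UQCRC2, of complex III, was at 11.11 to 11.34 against 11.48 to 11.65 (0.38, SE 0.11, adjusted p 0.133). Of 28 proteasome subunits 21 were positive (median 0.12).

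MTF1, the transcription factor that switches on metallothioneins in response to zinc, was the 1 gene of 14 in the metal list that passed. It was at 10.24, 10.01, 10.01 and 9.94 at 75 mg/kg and at 9.27, 9.28 and 9.10 at 100 mg/kg, and fell by 0.83 (SE 0.15, adjusted p 0.0414). The median of the list was -0.01. Among 40 interferon-induced genes none passed (median -0.10, 0.03 with arrays scaled to 1 median). The median of these genes was -0.14 relative to all genes, and -0.13 with that scaling. HERC5, a ligase for the ubiquitin-like ISG15, was at 7.61 to 7.87 against 8.30 to 8.55 (0.63, SE 0.14, adjusted p 0.0683), while BST2, tetherin, differed by -1.04 (SE 0.32, adjusted p 0.156).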

How the data were processed

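Total RNA of 12 H3122 xenograft tumours was hybridized to Illumina bead arrays, per the labels' protocols. The deposited values were average bead signal intensity per probe, without normalization, from 61.2 to 68257, with a detection p-value beside each signal, per the file headers. Genes carry the platform's symbols and no positions, since a build is not named in the files. The same 47323 rows of intensity values were deposited as a text table and as a value table, whose probe identifiers matched in only 1 row. Identifiers of the value table were used, since probe pairs of 1 gene then correlated at 0.421 against 0.0498, and each detection p-value was matched to it by identical signals. Of the probes, 30113 had 1 symbol, 8 several and 17202 none, and only the first were used.

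Background correction, quantile normalization and the log2 step used neqc (offset 16) of limma 3.58.1 in R 4.3.3 and data.table, version 1.17.8. Kept were 20889 probes whose detection p was below 0.01 on at least 2 arrays, and each of 12300 genes was read from its brightest probe on average. One fit with 4 group means over all 12 tumours gave the contrast 100 minus 75 mg/kg, with Benjamini-Hochberg adjustment over all genes and a threshold of 0.05. Where a group had no detected signal, the fold is a lower bound against the lowest detected signal per array. An adjusted p beside a bound is that of the fit on the measured signals, and the bound was not tested. The fit was tested on simulated data. Genes named were the 15 highest and 15 lowest differences, up to 5 members per list with the smallest p, genes of the study, and others said to be chosen after their values were seen. The comparison, the lists and these rules were chosen with earlier results of these data known. The number of arrays limits the precision. Alternatives covered background, offset, scaling, filter, probe choice, spread, weights, samples, replicate block and leaving out tumours.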

Additional observations from a re-analysis of the deposited data

Results flagged for a closer look

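In 8 of 161 genes, 1 tumour at 75 mg/kg stood apart from the other 3 by Dixon's criterion, which chance alone meets in about 1 of 20 groups. Replicate 1 was high in 5 of them: ACER3 at 9.60 (others 9.13 to 9.21), CFLAR at 11.98 (others 11.45 to 11.53), CTNND1 at 8.81 (others 8.65 to 8.67), GSDMB at 9.99 (others 9.20 to 9.32) and RN7SK at 10.1 (others 9.79 to 9.82). Replicate 3 was low in IRF1, at 8.6 (others 8.88 to 8.89), and high in IFIT5, at 6.34 (others 6.05 to 6.06). Replicate 2 was low in PTGR3, at 8.39 (others 8.64 to 8.66). Of these genes, 5 passed the test between the doses, ACER3, CTNND1, GSDMB, PTGR3 and RN7SK, and in each the 3 tumours at 100 mg/kg lay below all 4 at 75 mg/kg. The 161 genes include all 82 that passed, and in none of the 82 did the groups overlap, so both statements are a description.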

How the results depend on the processing

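All 82 genes kept their direction under each of the alternatives in which they were tested, and 0 of 82 passed under all of them. Where only tumours were left out, the direction was fixed in advance, since the 2 groups did not overlap in any of the 82. Leaving out 1 of the 7 tumours gave 0 to 3 genes, 0 to 2 higher and 0 to 2 lower, and CCNY no longer passed without replicate 3 at 75 mg/kg (adjusted p 0.0520) or replicate 2 at 100 mg/kg (0.0549). Counts in total, higher and lower were 120, 46 and 74 with an offset of 50, 5, 4 and 1 without normalization, 82, 53 and 29 with arrays scaled to 1 median, 119, 34 and 85 with an intensity trend and robust spread, 507, 226 and 281 with array weights, 416, 130 and 286 with the 7 tumours alone, and 36, 15 and 21 past 2-fold. Leaving out an 87.5 mg/kg tumour gave 331, 132 and 199 (replicate 2) and, chosen after seeing the data, 54, 15 and 39 (replicate 1) and 144, 56 and 88 (replicate 3). The difference of VIM ranged from -0.0888 (without replicate 1 at 100 mg/kg) to 0.51 (without replicate 2) when a tumour was left out. Without background subtraction the differences of POMC, PROX1 and MTMR7 were 0.91, -0.81 and 0.59. With the mean of a gene's probes CCNY, GSDMB and VPS13C differed by -0.62, -0.67 and -0.52. The cause of these changes was not tested. Same-numbered tumours of the 2 doses deviated with correlations of -0.0852, -0.0677 and 0.137, and 1 of 3 correlated best with its own number. So few values cannot show whether the numbers pair the tumours. With the replicate block 2 genes passed, 1 higher and 1 lower. Of 1025 list medians, 969 moved by less than the spread between tumours. Part of these could not move, since leaving out only control or 87.5 mg/kg tumours does not change the differences. The count is therefore no measure of stability.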
